A study of Rattus norvegicus with 24 samples.

Results

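The genes described here are those on rat chromosome 13, the chromosome that distinguishes the 2 strains of the study. A probe was taken where the array annotation gave it a single gene symbol and where the RefSeq gene table, joined by gene number, placed that gene on chromosome 13. Atp1b1 was left out. This gave 40 probes for 39 genes, of 1766 probes with a value, and the 39 genes are 5.91% of the 660 protein-coding genes that the table lists on the chromosome. Crp had 2 probes and every other gene 1.

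Kidney RNA of the rats was measured on 24 spotted cDNA arrays, each read in 2 channels. The Dahl salt-sensitive SS rat was compared with SS-13BN/Mcw (SS-13BN below), a consomic strain with an SS background in which chromosome 13 comes from the Brown Norway rat. Each array set a rat labelled LS against a rat labelled HS of the same strain, at a time labelled overnight or 3 days. LS and HS are not spelled out in the labels and are taken as low-salt and high-salt diets from what is known of the study. The 4 groups, SS overnight, SS 3 days, SS-13BN overnight and SS-13BN 3 days, each held 3 rat pairs, with 1 array for either dye orientation of a pair. In the titles, rats 1 to 3 of a strain stand in its pairs at both times. Pairs of the same strain and number thus share a rat, and counts over pairs of both times are not counts of independent pairs. Age and sex were not given in the sources used here. Since both channels of an array hold the same strain, the arrays measure how each strain responded and not how its resting level of a gene differs from that of the other strain.

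A consomic strain isolates the joint effect of all alleles on a single chromosome. Replacing chromosome 13 of the SS rat with that of the Brown Norway rat is known to reduce salt-sensitive hypertension and kidney injury, which is why genes on it are candidates. The measured genes on it include enzymes of steroid, drug and redox metabolism, glutamine synthetase, immune receptors, complement regulators and cytoskeletal genes. Renin, the best known blood pressure gene of this chromosome, is not analysed here.

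All values are log ratios of the deposited table, whose base and numerator are not given, so no folds and no direction with salt are stated. Values are called positive or negative in the sense of that ratio, which was taken to run the same way between the rats of a pair in all 24 arrays. With the arrays of one orientation turned in sign instead, many of the values named here change sign, Hsd11b1 in SS-13BN at 3 days to 0.26 and its strain difference to -0.20. A pair value is the mean of both arrays of a pair after each array was centred on its median. Group values are means ± SD over rat pairs, and differences between groups are given with the SE of the fit or its 95% interval. Adjusted p is from limma with Benjamini-Hochberg adjustment over all probes tested, and a probe passed at 0.05.

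An array held 877 to 1412 probe values, of which 18 to 33 were of chromosome 13 genes, and precision is limited by how many arrays there are. The 2 arrays of a pair differed by a median of 0.271 for chromosome 13 genes and 0.265 for genes elsewhere, a difference that includes the dye effect. Kidney markers were measured, with values for 16 of 23 listed proximal tubule genes, 5 of 9 of the thick ascending limb and distal tubule and 4 of 9 of the collecting duct. Slides of SS were numbered 18 to 23 overnight and 36 to 41 at 3 days, and those of SS-13BN 24 to 43 and 28 to 35. Slide number thus moved with group only in part, since the range of SS-13BN overnight spans both 3-day ranges. The part of slide number was not tested. Nothing but the rat numbers in the titles says how the animals were drawn, so p-values reflect no more than the variation among these pairs, which may be partly technical.

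Of the 40 probes, 26 could be tested in at least 1 comparison and 17 in all 9 comparisons. A test needed 2 of 3 pairs with both orientations in every group compared. The remaining 14 probes had too few values and are described at the end.

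The strain comparison asks whether genes on the substituted chromosome responded differently once their alleles were exchanged. In limma 0 of 21 chromosome 13 probes passed overnight and 0 of 17 at 3 days, where over all probes the share that passed was 0% at both times (0 of 1053 and 0 of 824). At an unadjusted p under 0.05 there were 3 of 21 overnight, against 5.03% of all probes, and 3 of 17 at 3 days, against 8.37%. Overnight these were Glul, Capn2 and Fmo1, and at 3 days Hsd11b1, Glul and Capn2. In each of these 6 differences the ratio of SS-13BN was the more negative. An array-level fit in limma took the 24 arrays as repeated measures of 12 pairs. That limma fit called 0 overnight and 1 at 3 days, Hsd11b1 (adjusted p = 0.00298). Over all probes it called 1 of 1049 and 7 of 824.

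**Figure D1:**
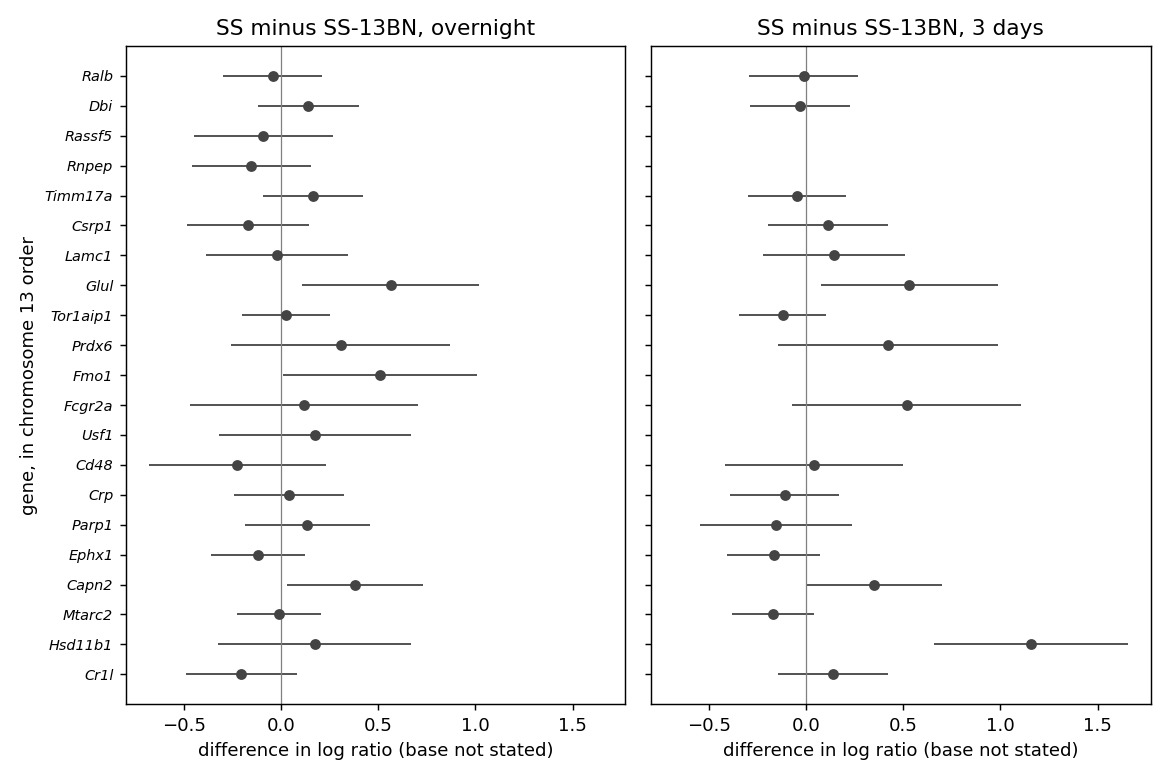
Difference in log ratio, SS minus SS-13BN, overnight (left) and at 3 days (right) for each chromosome 13 gene tested, listed in chromosome order; points are fitted differences and bars their 95% intervals. Hsd11b1 at 3 days lies farthest from 0 at 1.16, and Glul and Capn2 lie on the positive side at both times.

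Hsd11b1 encodes the enzyme that regenerates active glucocorticoid inside cells, and it had the largest strain difference among the chromosome 13 genes at 3 days. At 3 days pairs 1, 2 and 3 stood at 0.40, 0.39 and -0.62 in SS and at -0.94, -1.20 and -1.15 in SS-13BN. The groups did not overlap, and pair 3 of SS stood apart from the other two of its group on the side of SS-13BN. The difference was 1.16 ± 0.229 (SE, 95% interval 0.658 to 1.65), second by p of the 824 probes tested, with an adjusted p of 0.114. With arrays scaled to one spread it passed (adjusted p = 0.0403), and without pair 3 of SS at 3 days it was 1.49 and passed (adjusted p = 0.000222). That was the 1 of 12 fits leaving out 1 pair in which it passed. In those fits the adjusted p reached 0.414, and the difference was 0.98 without pair 1 of SS at 3 days. Of 9 other settings it passed in 2, kept its sign without passing in 6 and was reversed in 1.

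The single arrays showed the same picture for Hsd11b1. In SS-13BN at 3 days the arrays with the higher-numbered rat in Cy5 read -0.50, -0.99 and -1.03 and the swapped arrays -1.37, -1.41 and -1.28, so that all 6 were negative. In SS at 3 days the arrays of pair 3 read -0.55 and -0.68 and those of pairs 1 and 2 read from 0.20 to 0.59. Both dye orientations thus placed pair 3 of SS below the other pairs.

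Overnight Hsd11b1 was near 0 in both strains. Its pairs stood at 0.16, -0.020 and -0.099 in SS and at 0.085, -0.24 and -0.33 in SS-13BN, and the groups overlapped (difference 0.17 ± 0.229 SE, 95% interval -0.32 to 0.67, adjusted p = 0.995). Within SS-13BN the value fell by 0.94 from overnight to 3 days (SE 0.23, 3 of 3 pairs below the lowest overnight pair, adjusted p = 0.276), which did not pass. That time difference passed in the array-level fit (adjusted p = 0.0323) and without pair 3 of SS at 3 days (adjusted p = 0.0107), a pair that enters only through the shared estimate of the spread. In SS-13BN at 3 days Hsd11b1 was the chromosome 13 gene farthest from 0 at -1.10 ± 0.14 (SD, n = 3, adjusted p = 0.00853).

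Glul, the glutamine synthetase that joins ammonia to glutamate, was, of the chromosome 13 genes tested at both times, the 1 whose SS and SS-13BN pairs overlapped at neither. Overnight its pairs stood at -0.18, 0.058 and -0.12 in SS and at -0.23, -0.49 and -1.21 in SS-13BN. At 3 days they stood at -0.10, -0.043 and 0.18 in SS and at -0.25, -0.69 and -0.62 in SS-13BN. Values of SS lay about 0, whereas all 6 pairs of SS-13BN were negative and pair 3 overnight was by far the lowest. The strain difference was 0.56 ± 0.209 (SE, 95% interval 0.11 to 1.02, adjusted p = 0.898) overnight and 0.53 ± 0.209 (SE, 95% interval 0.077 to 0.99, adjusted p = 0.528) at 3 days, and neither passed. Without pair 3 of SS-13BN the overnight difference was 0.28.

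Glul had a strong dye effect, with a median of 0.45 between both arrays of a pair. With the higher-numbered rat in Cy5 the 3-day arrays read 0.18, 0.10 and 0.38 in SS and -0.095, -0.55 and -0.37 in SS-13BN. In the other orientation they read -0.39, -0.19 and -0.030 against -0.41, -0.83 and -0.87. Within either orientation the strains did not overlap at 3 days, though in the second the gap was small. Overnight they overlapped with the higher-numbered rat in Cy5 (0.046, 0.36 and 0.18 in SS, and 0.055 in pair 1 of SS-13BN, its highest).

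Capn2, the catalytic subunit of a calcium-dependent protease, resembled Glul. Overnight its pairs stood at -0.051, 0.025 and -0.10 in SS and at -0.093, -0.39 and -0.79 in SS-13BN, and the groups overlapped by a small margin. At 3 days they stood at -0.16, -0.13 and -0.16 in SS and at -0.23, -0.59 and -0.69 in SS-13BN, with no overlap. The strain difference was 0.38 ± 0.161 (SE, 95% interval 0.030 to 0.73, adjusted p = 0.898) and 0.35 ± 0.16 (SE, 95% interval 0.0025 to 0.70, adjusted p = 0.565). Both arrays of a pair agreed closely for this gene, with a median difference of 0.117.

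Fmo1, a flavin-containing monooxygenase that oxidises drugs and other nitrogen and sulfur compounds, was measured in 7 of 12 pairs. Overnight it stood at -0.40 and -0.18 in 2 pairs of SS and at -0.77 and -0.83 in 2 pairs of SS-13BN, which did not overlap (difference 0.51 ± 0.213 SE, 95% interval 0.0090 to 1.01, adjusted p = 0.898). The arrays of the lower SS-13BN pair read -0.28 and -1.37. The first of these lies within the range of the arrays of both SS pairs, -0.42 to -0.052. At 3 days 1 pair of SS stood at -0.85 and 2 pairs of SS-13BN at -0.48 and -1.11, so that the strains could not be tested. All 7 values were negative.

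Glul, Fmo1 and Capn2 were the chromosome 13 genes below an unadjusted p of 0.05 for the strain difference overnight, and their promoters are shown for that reason (Hsd11b1 had no entry in the promoter table used). The sequences are the 250 bases before the RefSeq start of each gene in build GRCr8, read 5′ to 3′ on the strand of the gene. That assembly is of a Brown Norway rat, so it is the Brown Norway form of the chromosome, and the SS sequence was not used here. Glul has 2 annotated starts, whose windows are chr13:68519250-68519499 and chr13:68575816-68576065 on the plus strand. The windows of Fmo1 (chr13:77747667-77747916) and Capn2 (chr13:96732626-96732875) are on the minus strand. Capitals mark matches on either strand to CCAAT, the CCAAT box, and GGGCGG, the GC box.
Glul first start: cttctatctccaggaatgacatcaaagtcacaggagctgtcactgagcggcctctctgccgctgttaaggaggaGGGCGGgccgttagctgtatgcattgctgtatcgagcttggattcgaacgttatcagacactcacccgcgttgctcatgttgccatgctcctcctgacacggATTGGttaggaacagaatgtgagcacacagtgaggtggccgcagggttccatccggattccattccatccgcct
Glul second start: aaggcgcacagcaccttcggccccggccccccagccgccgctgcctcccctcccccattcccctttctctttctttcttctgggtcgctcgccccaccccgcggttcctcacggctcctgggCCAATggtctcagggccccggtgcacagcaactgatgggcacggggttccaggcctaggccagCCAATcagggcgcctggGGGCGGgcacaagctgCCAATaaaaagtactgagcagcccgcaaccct
Fmo1: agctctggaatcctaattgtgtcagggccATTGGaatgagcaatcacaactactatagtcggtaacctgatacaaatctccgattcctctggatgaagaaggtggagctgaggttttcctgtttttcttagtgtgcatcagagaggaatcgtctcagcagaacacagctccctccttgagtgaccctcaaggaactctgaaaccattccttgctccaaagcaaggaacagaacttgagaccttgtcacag
Capn2: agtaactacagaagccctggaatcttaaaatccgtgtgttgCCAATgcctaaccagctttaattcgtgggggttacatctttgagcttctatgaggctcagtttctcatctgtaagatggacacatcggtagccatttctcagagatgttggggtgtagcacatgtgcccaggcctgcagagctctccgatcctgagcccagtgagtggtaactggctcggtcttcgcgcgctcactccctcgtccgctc

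The second Glul window held 3 CCAAT matches and 1 GC box, its first window 1 of each, and those of Fmo1 and Capn2 1 CCAAT match each and no GC box. Over all 33469 windows of this length in the table, 34.0% held CCAAT and 30.5% GGGCGG, and of 36 windows of 32 chromosome 13 genes 13 and 14 did. The letters TATAAA (12.9% of all windows), TGACNNNGC, the core of the antioxidant response element (10.1%), and the glucocorticoid response element palindrome (0.012%) were absent from these 4 windows. No motif searched overlapped another here, and a match is a description of the letters.

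**Figure D2:**
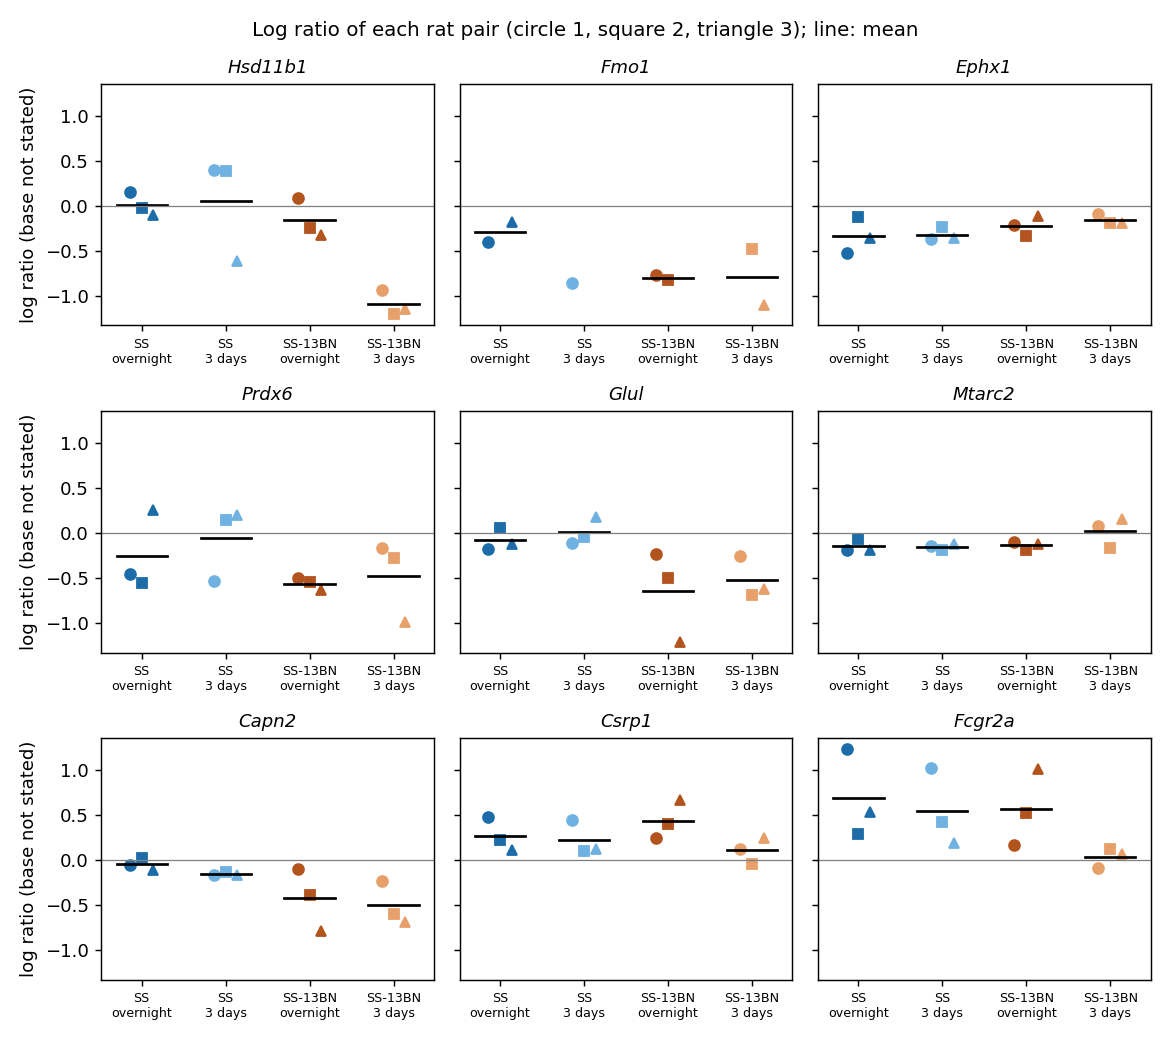
Log ratio of each rat pair (circle pair 1, square pair 2, triangle pair 3) in the 4 groups for 9 chromosome 13 genes; black lines are group means where at least 2 pairs had a value. Hsd11b1 is low in all 3 pairs of SS-13BN at 3 days, Glul lies about 0 in SS and below it in SS-13BN, and Ephx1 is negative in all 12 pairs.

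Single groups show which chromosome 13 genes left 0 in each strain. In SS 0 of 23 passed overnight in limma, against 1.14% of all probes (13 of 1139), and 3 lay under 0.05 before adjustment, against 15.3%. At 3 days 0 of 18 passed, against 0.34% of all probes (3 of 883), and 3 again lay under 0.05 before adjustment, against 12.2%. These were Ephx1, Fcgr2a and Csrp1 at both times. In SS-13BN 5 of 24 passed overnight, 1 positive and 4 negative, against 10.5% of all probes (3.18% positive and 7.36% negative). At 3 days 3 of 19 passed, all negative, against 2.98% of all probes (2.32% negative).

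The overnight genes of SS-13BN were Myog at -0.65 ± 0.31 (n = 3, adjusted p = 0.015), Glul at -0.65 ± 0.50 (n = 3, adjusted p = 0.0197), Fmo1 at -0.80 ± 0.042 (n = 2, adjusted p = 0.0203), Capn2 at -0.42 ± 0.35 (n = 3, adjusted p = 0.0359) and Csrp1 at 0.44 ± 0.21 (n = 3, adjusted p = 0.0203). The 3-day genes were Hsd11b1, Capn2 at -0.50 ± 0.24 (n = 3, adjusted p = 0.0353) and Fmo1 at -0.79 ± 0.44 (n = 2, adjusted p = 0.0393). Glul at -0.52 ± 0.24 did not pass at 3 days (adjusted p = 0.0943). The small SD of Fmo1 overnight is over 2 pairs and leaves out the spread between the arrays of a pair.

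These counts rested on few pairs. Overnight the 5 became 1 without pair 2 and 0 without pair 3 of that group, and 0 in a fit of that group alone. Over all probes the 116 likewise became 45 of 988, 12 of 1022 and 0 of 1100. At 3 days the 3 became 0 without pair 2 or pair 3 of that group, 1 without pair 1 or pair 3 of SS overnight or pair 2 of SS-13BN overnight, and 5 without pair 3 of SS-13BN overnight. Over all probes the 27 became 0 of 834, 0 of 814, 18, 22, 21 and 50 of 907 in the same order. The count was also 5 after quantile normalization, in the array-level fit and with scaled arrays, where 61 of 907, 58 of 904 and 61 of 907 of all probes passed. In SS overnight Ephx1 passed without pair 2 of that group (adjusted p = 0.0432), and Ephx1 and Fcgr2a passed in the array-level fit (adjusted p = 0.020 and 0.00801), with 6 of 1085 and 45 of 1122 of all probes.

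Markers of the proximal tubule were negative in the median in every pair. Over 9 listed genes with a value in every pair the pair medians ran from -0.29 to -0.21 in SS overnight. In SS at 3 days they were -0.76, -0.19 and -0.14 in pairs 1, 2 and 3, where Hsd11b1 stood at 0.40, 0.39 and -0.62. Glul stood there at -0.10, -0.043 and 0.18 and Capn2 at -0.16, -0.13 and -0.16. In SS-13BN overnight the marker medians were -0.47, -0.81 and -1.39 in pairs 1, 2 and 3. Glul stood there at -0.23, -0.49 and -1.21 and Capn2 at -0.093, -0.39 and -0.79. In SS-13BN at 3 days the marker medians were -0.76, -0.89 and -1.16. Glul stood there at -0.25, -0.69 and -0.62 and Capn2 at -0.23, -0.59 and -0.69. Of the 9 marker genes 7 to 9 were negative in each pair. Their part in the values of Glul, Capn2, Fmo1 and Hsd11b1 was not tested, and in whole tissue fewer cells of a type and less RNA per cell cannot be told apart. In SS-13BN, Hsd11b1 stood at -0.16 ± 0.22 (n = 3) overnight and at -1.10 ± 0.14 (n = 3) at 3 days.

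Among the 7 genes of steroid, drug and redox enzymes, Ephx1, the microsomal epoxide hydrolase, was the 1 with a negative value in all 12 pairs. Its pairs stood at -0.53, -0.13 and -0.36 in SS overnight, -0.37, -0.24 and -0.36 in SS at 3 days, -0.21, -0.34 and -0.12 in SS-13BN overnight and -0.092, -0.19 and -0.19 in SS-13BN at 3 days. It was the 1 chromosome 13 gene of 17 tested in every group whose measured pairs all shared a sign, against 5.47% of all probes. At 3 days SS was the more negative strain without overlap, opposite to Glul and Capn2 (difference -0.17 ± 0.110 SE, 95% interval -0.41 to 0.072, adjusted p = 0.631).

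Prdx6, a peroxiredoxin that reduces peroxidised phospholipids, stood at -0.46, -0.56 and 0.25 in SS overnight and -0.53, 0.14 and 0.21 in SS at 3 days. In SS-13BN it stood at -0.50, -0.55 and -0.64 overnight and -0.17, -0.28 and -0.99 at 3 days. The 6 SS-13BN pairs were negative, whereas SS was mixed and overlapped them (differences 0.31, 95% interval -0.26 to 0.87, and 0.42, 95% interval -0.15 to 0.99). Both arrays of a pair differed by a median of 1.12 for this probe, more than any mean of it, with all 12 arrays that held the higher-numbered rat in Cy5 below 0.

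The rest of this list was close to 0 or thinly measured. Dbi, an acyl-CoA binding protein, ranged from -0.17 to 0.19 over 12 pairs. Kmo, which hydroxylates kynurenine, stood at 0.079 and -0.54 in 2 pairs of SS-13BN overnight and at -0.68 in 1 pair at 3 days. In SS-13BN overnight all 6 tested genes of the list were negative, with 1 past the threshold, and at 3 days 4 of 5 were negative, with 2 past it. Over all probes 7.36% and 2.32% passed on the negative side, and 546 of 1100 and 447 of 907 were positive. In SS 3 of 5 and 3 of 4 were negative, with 0 past it in limma, where 588 of 1139 and 430 of 883 of all probes were positive.

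Of the 3 genes in the list of energy, amino acid and transport genes, Glul is given above. Mtarc2, a molybdenum enzyme of the mitochondrial outer membrane, was slightly negative in 9 of 9 pairs outside SS-13BN at 3 days. It stood at -0.19, -0.066 and -0.18 in SS overnight, -0.14, -0.19 and -0.12 in SS at 3 days and -0.096, -0.19 and -0.12 in SS-13BN overnight, but at 0.076, -0.17 and 0.15 in SS-13BN at 3 days. The strain difference at 3 days was -0.17 ± 0.0969 (SE, 95% interval -0.38 to 0.042, adjusted p = 0.59). Timm17a, a part of the mitochondrial import machinery, ranged from -0.24 to 0.14 with mixed signs in each group.

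Of the 7 genes in the list of matrix and growth genes, Csrp1, a LIM protein of the actin cytoskeleton, was positive in 11 of 12 pairs. It stood at 0.48, 0.22 and 0.12 in SS overnight, 0.44, 0.10 and 0.12 in SS at 3 days, 0.25, 0.40 and 0.67 in SS-13BN overnight and 0.12, -0.037 and 0.24 in SS-13BN at 3 days. The last group was below SS-13BN overnight without overlap (difference -0.33 ± 0.143 SE, adjusted p = 0.424), which did not pass. Lamc1, a laminin chain of basement membranes, ranged from -0.26 to 0.47 with its highest value in pair 3 of SS-13BN overnight.

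Myog is known as a transcription factor of skeletal muscle, and its name here is that of the array annotation. Its pairs stood at -0.40, -0.55 and -0.99 in SS-13BN overnight and -0.32, -0.55 and -0.34 at 3 days, and 1 pair of SS at each time stood at -0.80 and -0.72. All 8 values were negative, and with 1 pair in each SS group the strains could not be compared.

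Among the 8 genes in the list of complement, clotting and immunity genes, Fcgr2a, a receptor for the constant part of IgG, had the largest values. Its pairs stood at 1.24, 0.29 and 0.54 in SS overnight and 1.02, 0.43 and 0.20 in SS at 3 days. In SS-13BN they stood at 0.17, 0.53 and 1.01 overnight and -0.089, 0.12 and 0.065 at 3 days. The first 3 groups were positive throughout and overlapped, and SS-13BN at 3 days lay about 0, below every other pair. The strain difference at 3 days was 0.52 ± 0.27 (SE, 95% interval -0.071 to 1.11, adjusted p = 0.59), and without pair 1 of SS at 3 days it was 0.28. The probe of the neighbouring paralog Fcgr2b had a value on 3 arrays, and how far the cDNAs cross-hybridise was not tested.

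Stromal markers were also lowest in SS-13BN at 3 days. The pair medians of 4 genes (Dcn, Tagln, Col1a1 and Pdgfra) were 1.26, 0.33 and 0.31 in SS overnight, 1.43, 0.51 and 0.059 in SS at 3 days, 0.40, 0.41 and 1.04 in SS-13BN overnight and -0.16, -0.086 and -0.16 in SS-13BN at 3 days. Of 11 listed leukocyte markers 1 had a value on any array and 0 in every pair. The part of stromal cells or leukocytes in the values of Fcgr2a and Csrp1 was not tested.

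Cd48, an adhesion molecule of leukocytes, stood at 0.17, 0.19 and -0.14 in SS overnight and 0.32, 0.14 and -0.35 in SS at 3 days. In SS-13BN it stood at 0.095, 0.17 and 0.63 overnight and -0.23, -0.16 and 0.37 at 3 days, and all 4 groups overlapped. Cr1l, a membrane regulator of complement, stood at -0.14, 0.091 and -0.17 in SS overnight and 0.034, 0.082 and -0.28 in SS at 3 days, against 0.024, 0.057 and 0.31 in SS-13BN overnight and -0.36, -0.13 and -0.095 at 3 days. The probe of C-reactive protein (Crp) with values on every array ranged from -0.24 to 0.26, and its 3 pairs of SS-13BN at 3 days were all positive (0.16, 0.012 and 0.11). In the strain comparisons 0 of 4 tested genes of this list passed in limma at either time, and 0 lay under 0.05 before adjustment.

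In the list of 4 transcription, replication and cell death genes, Parp1, which marks damaged DNA with ADP-ribose, stood at 0.12, 0.21 and 0.32 in SS overnight. It stood at 0.014 and -0.40 in 2 pairs of SS at 3 days (time difference -0.41 ± 0.162 SE, adjusted p = 0.988), at -0.092, -0.0062 and 0.33 in SS-13BN overnight and at -0.11 and 0.031 in SS-13BN at 3 days. Neither strain difference passed (0.14, 95% interval -0.19 to 0.46, and -0.16, 95% interval -0.55 to 0.23). Usf1, a transcription factor that binds E-boxes, stood at 0.023 and 0.067 in SS overnight, 0.045 and -0.31 in SS at 3 days and -0.56, 0.14 and 0.028 in SS-13BN overnight. Psen2, the catalytic subunit of gamma-secretase, had -0.060 and -0.077 in SS overnight, -0.59 in 1 pair of SS at 3 days and 0.080 in 1 pair of SS-13BN overnight.

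Of the 7 genes outside these lists 2 to 5 could be tested in a comparison, and those tested did not pass in limma. Ralb, a small GTPase, was positive in 9 of 11 pairs, with 0.067, 0.18 and 0.015 in SS overnight, 0.30 and -0.067 in SS at 3 days, 0.13, 0.14 and 0.12 in SS-13BN overnight and 0.14, -0.020 and 0.26 at 3 days. Tor1aip1, a protein of the inner nuclear membrane, was negative in all 3 pairs of SS at 3 days (-0.085, -0.043 and -0.062) and ranged from -0.15 to 0.25 elsewhere. Rnpep, an aminopeptidase, had 0.13, -0.16 and -0.21 in SS overnight and -0.023, -0.0085 and 0.24 in SS-13BN overnight. Rassf5, a Ras effector, stood between -0.17 and 0.21 in 6 pairs. Ctse, the aspartic protease cathepsin E, was positive in the 3 pairs measured, 0.23 and 0.18 in SS-13BN overnight and 0.57 at 3 days. Cdc42bpa, a kinase downstream of Cdc42, stood at -0.017 and -0.36 in SS overnight and at 0.069, 0.0068 and 0.27 in 1 pair of each other group.

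**Figure D3:**
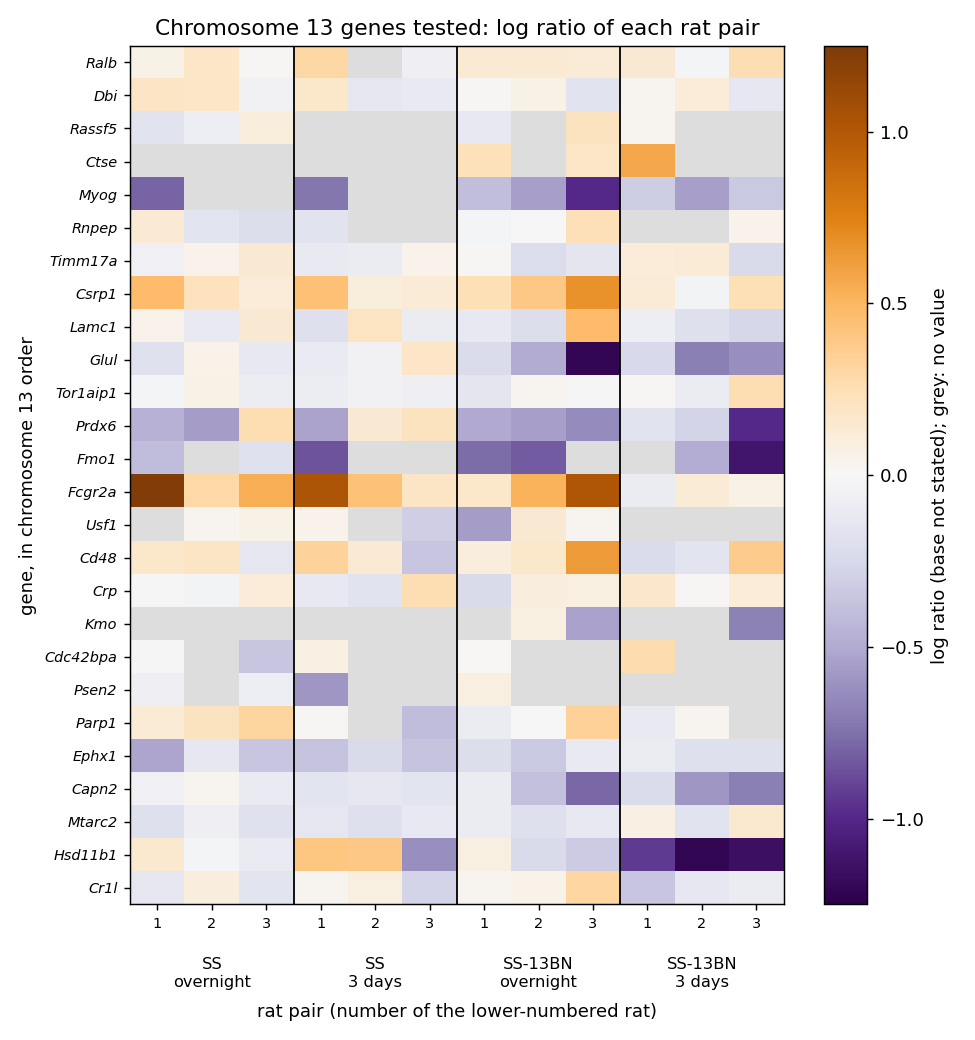
Log ratio of each of the 12 rat pairs (columns) for the 26 chromosome 13 probes tested in at least 1 comparison (rows, in chromosome order), purple for negative, orange for positive and grey for no value. Glul and Capn2 are purple mainly in SS-13BN, Hsd11b1 in SS-13BN at 3 days, and Fcgr2a is orange outside SS-13BN at 3 days.

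Averaged over the 4 groups, 8 of 17 chromosome 13 probes passed, against 28.5% of all probes (234 of 822), with 13.4% positive and 15.1% negative. On the negative side were Ephx1 at -0.26 ± 0.0388 (SE, adjusted p = 8e-04), Capn2 at -0.28 ± 0.0567 (adjusted p = 0.00395), Glul at -0.31 ± 0.0738 (adjusted p = 0.0098), Prdx6 at -0.34 ± 0.0919 (adjusted p = 0.0162), Hsd11b1 at -0.30 ± 0.0809 (adjusted p = 0.017) and Mtarc2 at -0.10 ± 0.0343 (adjusted p = 0.041). On the positive side were Csrp1 at 0.26 ± 0.0504 (adjusted p = 0.00313) and Fcgr2a at 0.46 ± 0.0956 (adjusted p = 0.00467). Mtarc2 did not pass with the low-numbered rat as a replicate block (adjusted p = 0.0806), with values as deposited (0.0713), after quantile normalization (0.0572) or in the array-level fit (0.0752), and it passed in 3 of 12 fits that left out 1 pair. The other 7 passed with the block. A value here is an average and does not say that the groups were alike, as Hsd11b1 and Glul show.

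Between the times 0 of 18 chromosome 13 probes passed in SS and 0 of 19 in SS-13BN in limma, and over all probes the share was 0% in both (0 of 880 and 0 of 897). That fit took the pairs of both times as independent, although they share the low-numbered rats, so its SE of a time difference ignores this pairing. At an unadjusted p under 0.05 there were 1 (Parp1) and 3 (Hsd11b1, Cr1l and Csrp1), against 1.93% and 11.3% of all probes. Pair values of the times did not overlap for 2 of 18 probes in SS, against 7.5% of all probes, and for 4 of 19 in SS-13BN, against 22.7%.

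Set beside genes on all other chromosomes, chromosome 13 genes had the larger strain differences in the median, without regard to sign. Overnight the median size was 0.152 over 21 chromosome 13 probes and 0.0911 over 864 probes of genes elsewhere, and at 3 days it was 0.144 over 17 and 0.113 over 681. With sign the medians were 0.042 and 0.0074 overnight and 0.041 and 0.013 at 3 days. Of the 21 chromosomes compared, chromosome 13 ranked 1 overnight and 3 at 3 days, where chromosomes ranged from 0.0645 to 0.152 and from 0.0674 to 0.174. Chromosomes with few probes spread more widely, and no test was made of the set.

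The rank depended on single pairs and on the dye convention. Without pair 3 of SS-13BN overnight the overnight medians were 0.102 and 0.0929 and chromosome 13 ranked 8, and without pair 3 of SS overnight they were 0.106 and 0.0901 and it ranked 4. At 3 days the medians were 0.118 and 0.114 and the rank 8 with arrays scaled to one spread. They were 0.236 and 0.137 and the rank 1 without pair 3 of SS at 3 days. Without pair 1 of SS-13BN at 3 days they were 0.138 and 0.128 and the rank 8. In the other fits that left out 1 pair the 3-day rank was from 1 to 5. With arrays turned by dye the medians were 0.0651 and 0.0771 and the rank 17 overnight, but 0.101 and 0.0611 and the rank 1 at 3 days. Pair values of the strains did not overlap for 2 of 21 chromosome 13 probes overnight, against 10.9% of all probes, and for 5 of 17 at 3 days, against 15.8%. Overnight both, Glul and Fmo1, were higher in SS, and over all probes 7.69% were higher and 3.23% lower in SS. At 3 days Hsd11b1, Glul, Capn2 and Fcgr2a were higher and Ephx1 lower in SS, with 8.37% and 7.4% over all probes.

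**Figure D4:**
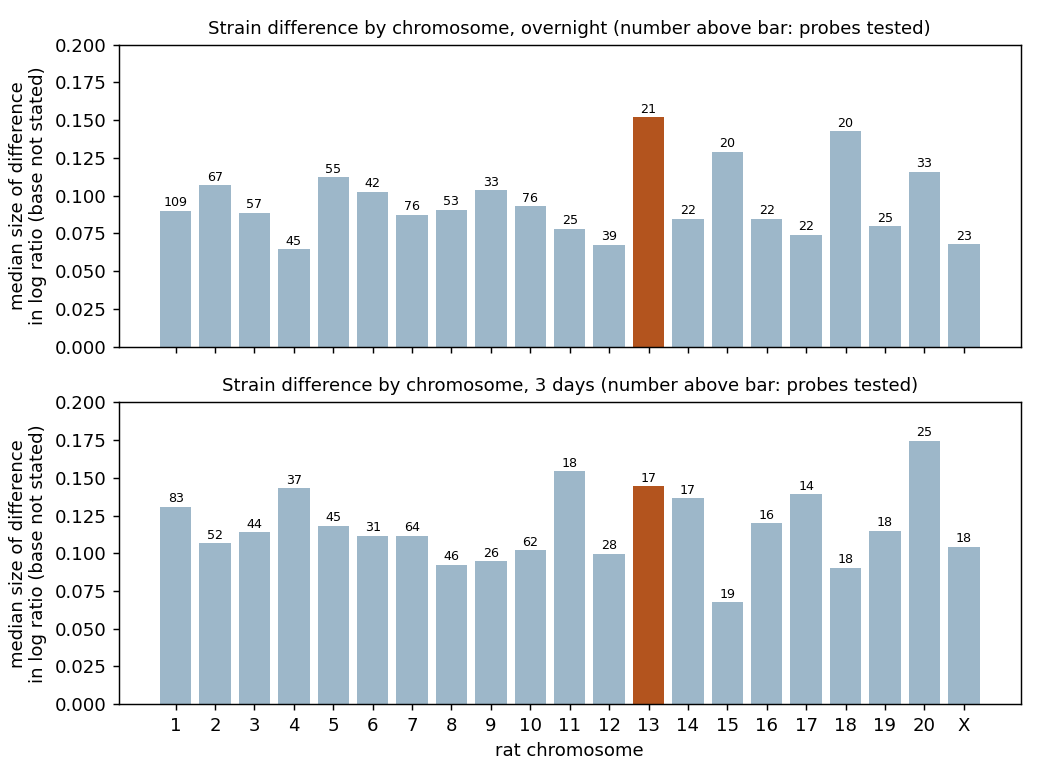
Median size of the difference between SS and SS-13BN in log ratio for the probes of each rat chromosome, overnight (top) and at 3 days (bottom), with the number of probes tested above each bar and chromosome 13 in brown. Chromosome 13 stands at 0.152 over 21 probes overnight and at 0.144 over 17 probes at 3 days.

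In the order of the 39 measured genes Glul was number 17 and Fmo1 number 20, while Capn2, Mtarc2 and Hsd11b1 were numbers 36, 37 and 38. Mtarc2, between Capn2 and Hsd11b1, had strain differences of -0.0099 and -0.17, and Cr1l, number 39, of -0.20 and 0.14. Of the genes between Glul and Fmo1, Tor1aip1 (number 18) differed by 0.027 overnight and -0.12 at 3 days, and Prdx6 (number 19) by 0.31 and 0.42. Neighbours were not tested against each other, and other genes lie between the measured ones.

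The 14 probes that could not be tested had few values. Of these 8 had no pair measured in both orientations, namely Cd55 and C4bpb, which act in complement regulation, the matrix proteoglycan Fmod, the troponin Tnnt2, the IgG receptor Fcgr2b, the death effector protein Dedd, the centrosomal protein Cep170 and the second Crp probe. The chemokine receptor Cxcr4 stood at -0.0015, -0.25 and -0.12 in 1 pair of SS overnight, SS at 3 days and SS-13BN overnight. The muscle protein gene Mybph stood at 0.20 and -0.033, the steroid reductase Hsd17b7 at 0.27 and -0.051, and the GTPase Rab29, the adaptor Nos1ap and the pentraxin Apcs at -0.013, 0.47 and -0.47 in 1 pair each.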

How the data were processed

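The deposited table holds 1 log ratio for each probe and array, made by the authors, with the log base, numerator and earlier steps not given in the sources used here. Deposited columns had means of at most 0.00082 and medians of at most 0.0668 in size. Arrays were median centred, and both orientations of a pair averaged. No array was turned by dye, since r between both arrays of a pair was above 0 for 12 of 12 pairs (0.169 to 0.825) once the orientation's own mean was subtracted, and r ran from -0.0595 to 0.749 without that step.

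Of 1766 measured probes 1426 had 1 symbol in the array annotation, 29 several and 311 none, and 1421 matched the rat RefSeq table (GRCr8) by gene number. Of the 39 genes 32 had a promoter in the RefSeq table of that build. limma fitted 1 coefficient per group over 12 pairs, leaving 8 residual degrees of freedom where none was missing, two-sided, with eBayes. The fit was checked on simulated data with independent normal noise for each pair. A strain difference of 0.5 was recovered for 64% of changed probes overnight and 72% at 3 days, and a difference of 1 for 92% and 95%. The simulated pairs had no dye effect and no shared rats, so the check does not cover these. Many probes were changed at once there, which makes the adjustment more lenient than where few differ. The shares recovered thus do not say how often a lone difference of that size would pass in these data. The titles give the low-numbered rats of a strain at both times, and deviations of the same rat correlated between times (r 0.213 to 0.646, with 0.0592 for rat 2 of SS), and an alternative fit took that rat as a replicate block.

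The genes, role lists and markers were chosen with earlier results of these data known. Every gene is named, with pair values where a gene passed, where strains did not overlap (up to 6 per direction), for up to 4 per direction with 1 sign in every pair of a group, and for up to 2 per list by p. Alternatives were other centring, scaling or quantile normalization, turning by dye, an array-level fit, the block, separate fits, all 3 pairs required, single orientations kept and each pair left out. Software was R 4.3.3, limma 3.58.1, statmod 1.5.0, Python 3.11.15 and matplotlib 3.10.9.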

Additional observations from a re-analysis of the deposited data

Results flagged for a closer look

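Cr1l, a regulator of complement, was positive in all 3 pairs of SS-13BN overnight (0.024, 0.057 and 0.31) and negative in all 3 at 3 days (-0.36, -0.13 and -0.095). The difference of -0.32 was tested in limma and did not pass (SE 0.13, adjusted p = 0.424). Both arrays of a pair differed by a median of 0.60 for this probe.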

How the results depend on the processing

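The choice that mattered most was whether arrays of one dye orientation are turned in sign. Turned, the number of chromosome 13 probes past the threshold was 4 of 23 in SS overnight (325 of 1139 of all probes), 7 of 18 in SS at 3 days (344 of 883), 7 of 24 in SS-13BN overnight (309 of 1100), 8 of 19 in SS-13BN at 3 days (299 of 907) and 11 of 17 in the mean of 4 groups (568 of 822). In SS-13BN overnight Myog then stood at 0.057, Capn2 at 0.053, Fmo1 at 0.26 and Glul at 0.24, and at 3 days Capn2 at 0.16, Fmo1 at 0.0034 and Hsd11b1 at 0.26, all reversed. The strain difference reversed for Fmo1 overnight (-0.31) and, at 3 days, for Capn2 (-0.063), Ephx1 (0.0079), Hsd11b1 (-0.20) and Fcgr2a (-0.14). The mean of 4 groups reversed for Capn2 (0.072), Ephx1 (0.018), Hsd11b1 (0.12), Mtarc2 (0.076), Glul (0.23) and Fcgr2a (-0.20). The median size of the strain difference was then 0.0651 for chromosome 13 genes and 0.0771 for genes elsewhere overnight (rank 17), and 0.101 and 0.0611 at 3 days (rank 1).

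In SS overnight 2 probes passed with arrays scaled, after quantile normalization and in the array-level fit, against 0, while all probes called rose from 13 to 51, 67 and 45. In SS at 3 days 2 passed in the array-level fit, against 0, with all probes rising from 3 to 36. In SS-13BN at 3 days 5 passed in each of those 3 settings, against 3, with all probes rising from 27 to 61, 61 and 58. For the strain difference at 3 days 1 passed with arrays scaled and in the array-level fit (7 of all 824 probes in each), and for the time difference in SS-13BN 1 in the array-level fit (6 of 896), against 0. A fit of SS-13BN overnight alone gave 0, against 5, and 0 of all 1100. The cause of these changes was not tested.

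With each pair left out in turn the count ran from 0 to 1 in SS overnight, 0 to 0 in SS at 3 days, 0 to 7 in SS-13BN overnight and 0 to 5 in SS-13BN at 3 days. Over all probes it ran from 0 to 21, 0 to 10, 12 to 144 and 0 to 50. It ran from 0 to 1 for the strain difference at 3 days and the time difference in SS-13BN, and from 7 to 8 for the mean of 4 groups. Over all probes it ran from 0 to 1 for the strain difference at 3 days. With all pairs kept, 0 of 897 probes passed for the time difference in SS-13BN and 234 of 822 for the mean of 4 groups. The median size of the strain difference ran from 0.102 to 0.163 overnight and from 0.138 to 0.236 at 3 days. With the replicate block, Hsd11b1 had an adjusted p of 0.0907 for the strain difference at 3 days, and the block changed the call of Mtarc2 in the mean of 4 groups (adjusted p = 0.0806) and of no other named gene. Signals over background are not analysed here, so precision rests on 3 pairs a group.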
